A study of Homo sapiens with 2 samples.

Results

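The genes of PI3K, AKT and mTOR signalling were followed through the expression data of one pair of cultures of L-540, an established Hodgkin lymphoma cell line generally regarded as T-cell derived. One culture was untreated and the other received vorinostat, an inhibitor of histone deacetylases, for a time and at a dose that the labels do not state; both were the same line, and no engineered allele or other agent is named. Total RNA of each culture was read on 1 Affymetrix HG_U133A array, so the 2 arrays are 1 sample per group, no test was possible and no difference below has a replicate check. A list of 38 genes defined the pathway, and every probe set whose annotated symbol was 1 of them was taken. This gave 61 probe sets of 35 genes, out of 19065 probe sets of 11963 genes with a single symbol; the other 3 genes are not analysed here.

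As background, receptors and docking proteins recruit class I phosphoinositide 3-kinases (PI3K) to the plasma membrane, where they make the lipid PIP3. PIP3 draws in PDPK1 and AKT, and AKT then phosphorylates FOXO factors, GSK3 and TSC2; TSC1 and TSC2 restrain RHEB, the GTPase that switches on the growth kinase mTOR. In Hodgkin and Reed-Sternberg cells PI3K and AKT are known to be active and to support survival.

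Each value is a MAS5 signal, a linear intensity per probe set. Signals under 68.9, the value below which 40% of the non-control signals of the pooled arrays lie, were raised to that floor before logarithms were taken. A gene under the floor on 1 array has only a limit to its ratio ("at least"), and one under it on both was not measured. A gene is represented by its brightest probe set, and ratios are vorinostat over untreated. Signals of different probe sets are not on a common scale, so levels are compared only within a probe set.

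All 35 genes were measured, and for 33 both signals exceeded the floor. For 19 of the 35 the brightest probe set carries a suffix for sequence that can be shared with other transcripts. At least 2-fold higher in the vorinostat culture were 2 genes, SGK1 (2.83-fold) and PIK3C2B (at least 2.82-fold). At least 2-fold lower were 3 genes, DOK2 (4.95-fold), INPP5D (2.40-fold) and MLST8 (2.09-fold). The other 30 did not pass 2-fold; 1 of them, PIK3CG, has only a limit. Over the 8277 genes measured on the arrays, 3.77% passed 2-fold upward and 5.12% downward, which for 35 genes corresponds to 1.32 and 1.79. The counts of 2 and 3 are thus near the background and are no result about the pathway as a whole. At 1.5-fold, 2 were higher and 6 lower, against 12.7% and 15.5% of all measured genes, or 4.44 and 5.43 in 35. The median log2 ratio was -0.07, beside -0.04 for all measured genes. With the arrays scaled to equal medians these were 0.06 and 0.08, after quantile normalization -0.03 and 0.02, and after loess -0.03 and 0.01.

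**Figure D1:**
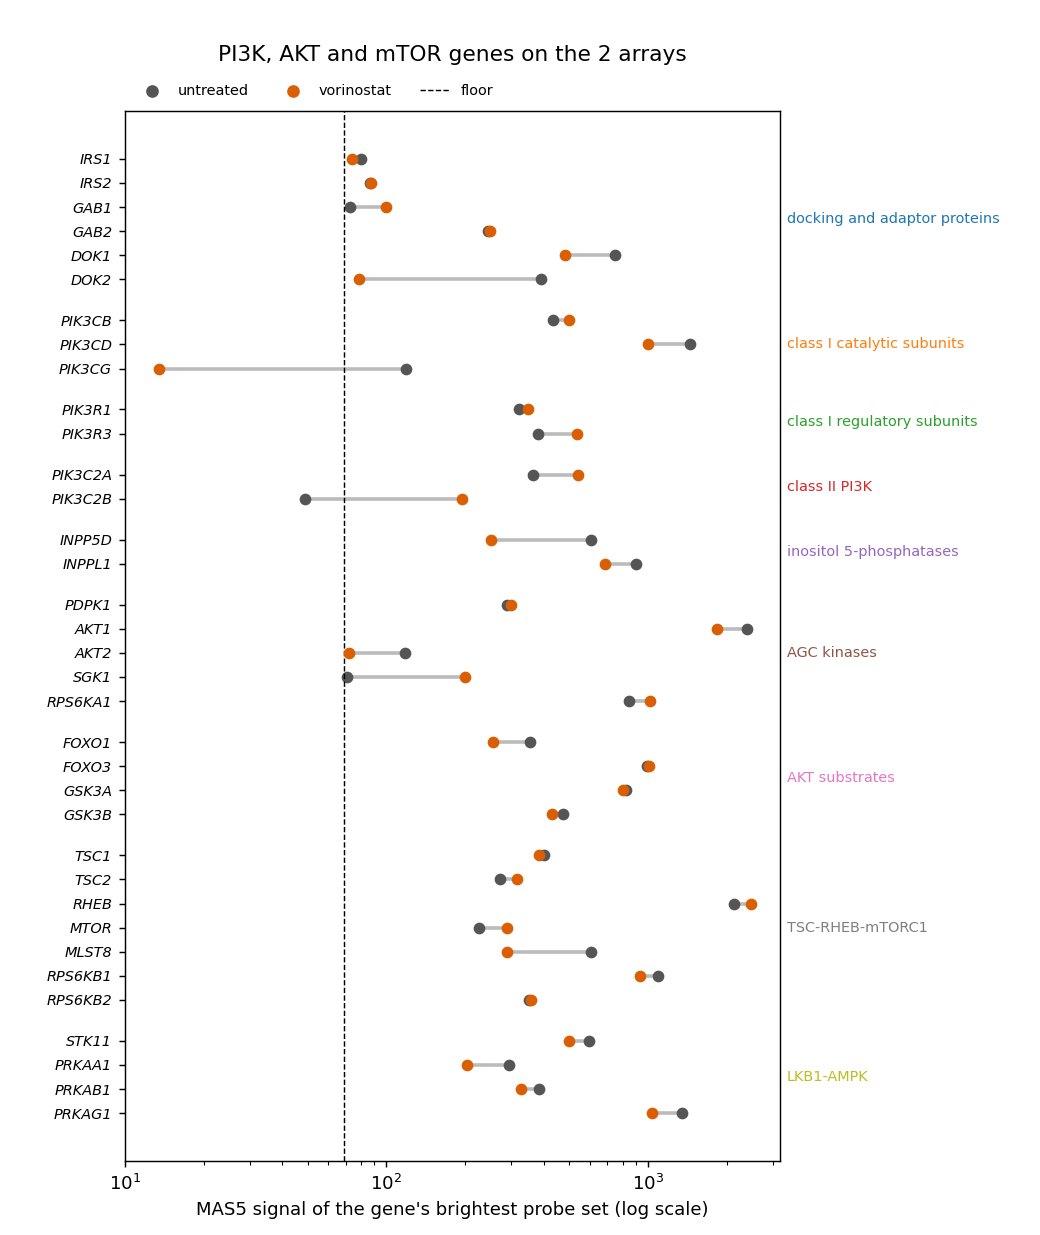
MAS5 signals (log axis) of the 35 genes on both arrays, each by its brightest probe set, ordered by role; the 2 points of a row are the untreated and the vorinostat array and the dashed line is the floor of 68.9. Most pairs of points lie close together, while DOK2, INPP5D and MLST8 lie clearly lower, PIK3CG lies under the floor, and SGK1 and PIK3C2B clearly higher on the vorinostat array.

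Of the whole series, 91.1% of measured genes did not pass 2-fold, the arrays shared a trimmed mean signal of 500.2, and 61.2% (untreated) and 58.8% (vorinostat) of probe sets other than controls exceeded the floor. Equal-median scaling shifted the median log2 ratio of all genes by 0.12, and the share of 2-fold calls that were higher went from 42.4% to 58.8%. The hybridisation spike-ins had an SD of 0.17 in log2 ratio over 18 probe sets. Of 7 Hodgkin markers 5 were above the floor on both arrays. TNFRSF8, which encodes CD30, a marker of Hodgkin cells, had signals of 10777 untreated and 3228 with vorinostat. FUT4 (335 and 218) and TRAF1 (1027 and 666) were lower too, while GATA3 (1174 and 1565) and IRF4 (12032 and 14699) were higher, and the chemokine genes CCL17 and CCL22 were under the floor on both arrays. Of 6 T cell markers 3 and 2 were above the floor, untreated and vorinostat, with CD3D, CD3G and LCK under it on both, and their signals, summed over 1 probe set per gene, went from 4973 to 1308. CD247 alone went from 4463 to 942 and makes up most of that sum, while CD2 went from 319 to 220 (1.45-fold lower); such sums add probe sets of different scale. B cell markers had 1 of 4 above the floor on each array (summed signals 423 and 211), monocyte markers 1 of 4 (238 and 196), granulocyte markers 0 of 4 (128 and 135), and the red cell marker HBB 1 of 1 (178 and 183). Fibroblast markers had 2 and 3 of 5 (501 and 502) and epithelial markers 1 and 2 of 5 (166 and 223). The part of these markers in the results below was not tested. Both cultures are labelled as the single line L-540, so the lists name markers rather than cell types mixed in a sample. In a culture measured in bulk, fewer cells with a transcript and less RNA per cell cannot be told apart.

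With no replicate arrays, the probe sets of 1 gene give the nearest view of measurement error, which leaves out the spread between cultures. Over 2428 genes with at least 2 probe sets above the floor on both arrays, the log2 ratios of the 2 brightest differed by a median of 0.25, and 95% of the differences were up to 0.84. The sign matched in 78.9% of those genes. Among the 11 pathway genes with such a pair, the median difference was also 0.25 and the sign matched in 7. The widest gap, 0.79, belonged to PIK3R3. Ratios nearer to 0 than about 0.25 are therefore smaller than the median difference between probe sets of a single gene. Those nearer to 0 than 0.84 still lie within the range of 95% of such differences.

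**Figure D2:**
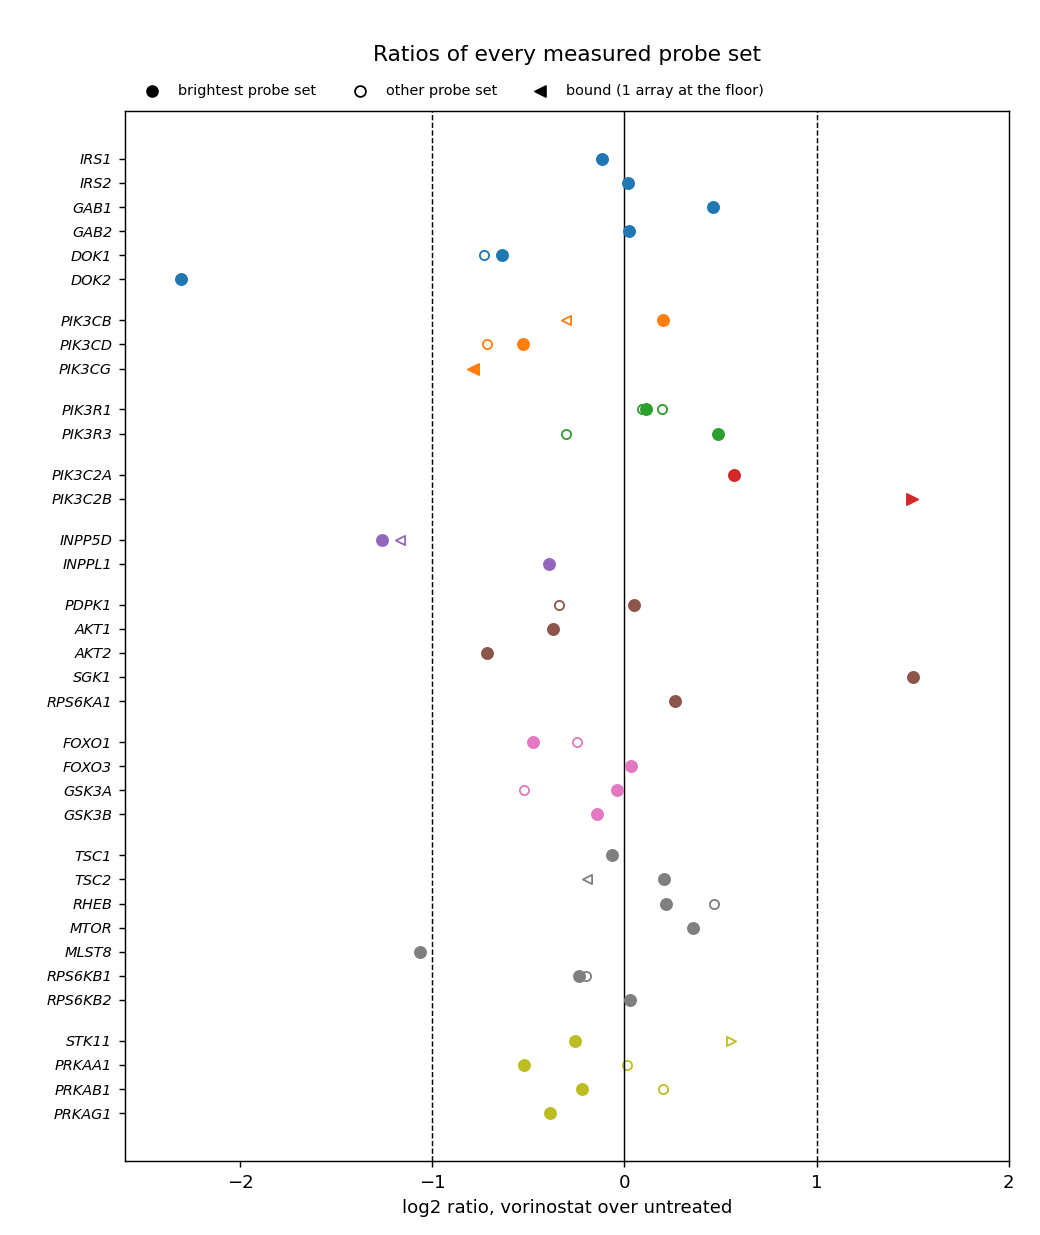
Log2 ratio, vorinostat over untreated, of each of the 51 measured probe sets, by gene and coloured by role; filled points are the brightest probe set, open points the others, triangles bounds, and dashed lines 2-fold. Both probe sets of INPP5D lie past the line at -1, while those of PIK3R3, PDPK1, PRKAA1 and PRKAB1 fall on both sides of 0.

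Sequence upstream of the annotated starts is shown for the genes at least 2-fold apart, chosen by that rule alone. These starts include GC-rich and AT-rich ones, the AT-rich ones all of SGK1. The RefSeq promoter table (build GRCh38.p14) held entries for 32 of the 35 genes, with 56 starts, since some genes have several; MLST8, DOK2 and GAB1 have no entry. The 250 bases before the start are printed 5′ to 3′ on the strand of the gene. Capitals mark matches, on either strand, to short promoter motifs. One is the GC box bound by Sp1 and spelled GGGCGG; the others searched were the CCAAT box under its own letters, the TATA box as TATAAA, the site of FOXO factors with the spelling GTAAACA, and the core of sites for the ETS family of factors, written AGGAAG. PIK3C2B lies at chr1:204494806-204495055 on the minus strand and INPP5D at chr2:233060092-233060341 on the plus strand. The 3 starts of SGK1, all on the minus strand, are at chr6:134174867-134175116 (downstream), chr6:134177862-134178111 (middle) and chr6:134318113-134318362 (upstream).
PIK3C2B: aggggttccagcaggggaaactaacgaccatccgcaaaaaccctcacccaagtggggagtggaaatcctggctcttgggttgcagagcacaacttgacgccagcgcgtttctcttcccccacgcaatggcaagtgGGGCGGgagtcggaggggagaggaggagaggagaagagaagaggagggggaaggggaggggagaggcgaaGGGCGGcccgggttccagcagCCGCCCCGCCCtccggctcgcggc
INPP5D: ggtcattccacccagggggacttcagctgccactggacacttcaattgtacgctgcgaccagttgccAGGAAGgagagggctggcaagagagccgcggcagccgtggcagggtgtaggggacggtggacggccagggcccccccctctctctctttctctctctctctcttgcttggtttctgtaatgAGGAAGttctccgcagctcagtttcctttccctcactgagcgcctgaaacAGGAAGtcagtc
SGK1 downstream: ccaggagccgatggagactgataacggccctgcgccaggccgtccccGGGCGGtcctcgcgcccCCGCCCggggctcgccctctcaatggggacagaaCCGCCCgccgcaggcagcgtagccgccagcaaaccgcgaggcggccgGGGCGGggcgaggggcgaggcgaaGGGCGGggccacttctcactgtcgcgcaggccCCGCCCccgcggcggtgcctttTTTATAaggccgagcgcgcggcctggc
SGK1 middle: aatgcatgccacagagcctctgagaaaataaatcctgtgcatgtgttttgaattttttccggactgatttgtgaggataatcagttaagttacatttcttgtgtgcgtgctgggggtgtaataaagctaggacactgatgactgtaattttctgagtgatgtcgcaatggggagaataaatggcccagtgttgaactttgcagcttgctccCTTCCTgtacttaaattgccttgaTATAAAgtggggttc
SGK1 upstream: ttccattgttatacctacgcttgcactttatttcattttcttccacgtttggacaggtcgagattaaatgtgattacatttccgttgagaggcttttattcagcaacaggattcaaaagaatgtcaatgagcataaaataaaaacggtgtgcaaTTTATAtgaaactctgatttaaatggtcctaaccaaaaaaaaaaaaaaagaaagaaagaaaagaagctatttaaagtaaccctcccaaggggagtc

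The window of PIK3C2B was 65.2% G or C with 16 CpG dinucleotides and held 4 GC boxes, the nearest at -24 to -19 and -19 to -14, which share 1 base. The downstream window of SGK1 was 76.0% G or C with 35 CpG and held 6 GC boxes and, on the opposite strand, a TATA box match at -27 to -22. Its middle and upstream windows were 41.6% and 33.6% G or C, with 3 and 5 CpG, and held 0 GC boxes. INPP5D, whose window was 59.2% G or C with 9 CpG, held 0 GC boxes and 3 ETS cores, at -183 to -178, -62 to -57 and -12 to -7. The array does not tell which SGK1 start was in use.

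Over the 56 windows the median G or C content was 65.2%, beside 58.0% over all 35116 windows of the table. A GC box was in 37 of the 56 windows (66.1%), beside 42.6% of all windows. A CCAAT box was in 17 (30.4%, beside 32.0%), an ETS core in 15 (26.8%, beside 28.7%), a TATA box in 4 (7.14%, beside 10.7%) and a FOXO site in 0 (beside 2.98%). These are matches of letters in windows of which several belong to the same gene, and they say nothing about binding.

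Docking and adaptor proteins couple receptors to PI3K or to its brakes. DOK2, an adaptor of blood cells that recruits RasGAP and dampens receptor signals, had a signal of 390.4 in the untreated and 78.9 in the vorinostat culture, 4.95-fold lower. This was the lowest log2 ratio of the 33 genes with both signals past the floor, from its only probe set, and the vorinostat signal was just above the floor; a higher floor, at the 60th percentile, left only a bound of -0.77 in log2 ratio. DOK1, its relative with a similar role, went from 747 to 480.1 (1.56-fold lower), and its other probe set had a log2 ratio of -0.73. Both DOK1 probe sets carry a suffix for sequence that can be shared. Both DOK genes were thus lower, and their log2 ratios were 1.67 apart. GAB2, a scaffold that binds the p85 subunit, had signals of 244 and 248, and GAB1, a related scaffold, 72.7 and 99.8, close to the floor. The insulin receptor substrate genes IRS1 (log2 ratio -0.12) and IRS2 (0.02) were near the floor too, and IRS1 was above 0 under each of the 3 other scalings.

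Among the class I catalytic subunits, which make PIP3, PIK3CD encodes p110δ, the form typical of leukocytes. Its signal was 1443 untreated and 999.5 with vorinostat, 1.44-fold lower, and its second probe set had a log2 ratio of -0.72. PIK3CG, which encodes p110γ, the form coupled to G protein receptors, had 119 and 13.5, under the floor with vorinostat, and was at least 1.72-fold lower. PIK3CB, which encodes the broadly expressed p110β, had 435 and 499.9, a log2 ratio of 0.20, and a bound of -0.30 on its dim second probe set. PIK3CD was lower on both of its probe sets. PIK3CG was lower on its 1 measured probe set, which carries a suffix for sequence that can be shared, and its other was under the floor on both arrays. The PIK3CB probe sets lay on both sides of 0.

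The regulatory subunits hold the catalytic ones and bind phosphotyrosine. PIK3R1, which encodes p85α, had signals of 321 and 347, and its 3 probe sets had log2 ratios of 0.11, 0.20 and 0.09. PIK3R3, which encodes p55γ, had 380.3 and 534 on its brightest probe set, 1.40-fold higher, but a log2 ratio of -0.30 on the other. The 3 probe sets of PIK3R1 lay together close to 0, and those of PIK3R3 gave no common direction.

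Class II PI3K enzymes make phosphoinositides on endosomes and at clathrin-coated sites rather than PIP3 at the plasma membrane. PIK3C2B had signals of 49.0 in the untreated and 194 in the vorinostat culture, at least 2.82-fold higher against the floor. PIK3C2A, the broadly expressed member, went from 362 to 539, 1.49-fold higher. Each has 1 probe set without a suffix for shared sequence, and both were higher.

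INPP5D encodes SHIP1, the 5-phosphatase of blood cells that turns PIP3 into PI(3,4)P2. Its signal was 604 untreated and 251 with vorinostat, 2.40-fold lower. On its second probe set the signals were 155 and 15.9, at least 2.25-fold lower. Both probe sets gave the same direction and both carry a suffix for sequence that can be shared. INPPL1, which encodes the widely expressed relative SHIP2, had 901 and 686, 1.31-fold lower.

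Of the AGC kinases, PDPK1 activates the others by phosphorylating their activation loop. Its signals of 290 and 299 gave a log2 ratio of 0.05 on the brightest probe set and -0.34 on the second. AKT1, the most widely expressed AKT, had 2387 and 1845, 1.29-fold lower. AKT2, known for insulin-driven glucose uptake, had 118 and 71.8, 1.64-fold lower, the latter just above the floor. SGK1, a relative of AKT whose transcript is induced by glucocorticoids and cell stress, had 70.4 untreated, just above the floor, and 199 with vorinostat, 2.83-fold higher. RPS6KA1, which encodes the RSK1 kinase activated by ERK and PDPK1, had 850.4 and 1019, 1.20-fold higher. The 2 AKT genes were lower and SGK1 higher, on 1 measured probe set each. Those of AKT1 and AKT2 carry a suffix for sequence that can be shared, whereas that of SGK1 does not. With the 60th percentile as floor, neither SGK1 nor PIK3C2B was measured.

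The AKT substrates lay within 1.5-fold. FOXO1, a transcription factor that AKT keeps out of the nucleus, had signals of 355 and 255, 1.39-fold lower, with a log2 ratio of -0.24 on its other probe set. FOXO3, a second such factor, had 992 and 1014 on the probe set annotated to it alone. GSK3B, a kinase that AKT inhibits, had 474 and 429.6, a log2 ratio of -0.14. GSK3A had a log2 ratio of -0.04, which became 0.09 with equal medians, and -0.52 on a second probe set whose suffix marks shared sequence.

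In the TSC, RHEB and mTOR branch, 1 of 7 genes passed 2-fold. MLST8, the small WD-repeat subunit that both mTOR complexes contain, read 607 in the untreated and 290.3 in the vorinostat culture, 2.09-fold lower. Its only probe set has a suffix for shared sequence. With equal medians its log2 ratio was -0.93, short of 2-fold. MTOR, the kinase itself, went from 226 to 290.0, 1.28-fold higher, so that the 2 subunits of the same complexes had log2 ratios of opposite sign, 0.36 and -1.06. RHEB had 2129 and 2473, 1.16-fold higher, and 0.47 in log2 ratio on its second probe set. TSC1, the scaffold of the RHEB inhibitor, had a log2 ratio of -0.07 (0.06 with equal medians). TSC2, its catalytic partner, had 0.21 and a bound of -0.19 on a second probe set near the floor. The S6 kinase genes RPS6KB1 and RPS6KB2, direct targets of mTOR, had log2 ratios of -0.23 and 0.03.

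LKB1 and AMPK sense low energy and restrain mTOR through TSC2. The 4 genes of this branch were lower on their brightest probe sets, by less than 1.5-fold each, and stayed below 0 under each of the 3 other scalings. PRKAG1, the AMP-binding γ subunit, had signals of 1356 and 1038, 1.31-fold lower. PRKAA1, the catalytic α subunit, had 293 and 204 (1.44-fold lower), and 0.01 in log2 ratio on its second probe set. PRKAB1, the β subunit, had -0.22 and 0.20 on its 2 probe sets. STK11, which encodes LKB1, had -0.26 and, on a dim probe set with such a suffix, a bound of 0.55. Thus 3 of the 4 genes had a second probe set above 0.

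Across 12 pairs of related genes, the log2 ratios of the partners differed by a median of 0.40, with limits taken at their bound, and 7 pairs had the same sign, a count that moves with scaling because IRS1, GSK3A and TSC1 change sign under at least 1 other scaling. The DOK pair was 1.67 apart, INPP5D and INPPL1 were 0.87 apart, both lower, and PIK3CB and PIK3CD were 0.73 apart with opposite signs. PIK3C2A and PIK3C2B, both higher, were at least 0.92 apart, because PIK3C2B was under the floor in the untreated culture. For genes with both signals past the floor, MLST8 (2.09-fold) and INPP5D (2.40-fold) were the nearest inside the 2-fold rule. The nearest outside were AKT2 (1.64-fold) and DOK1 (1.56-fold). By probe set, 2 of the 51 measured ones were at least 2-fold higher and 4 lower, beside 3.75% and 5.66% of all 12445 measured probe sets.

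**Figure D3:**
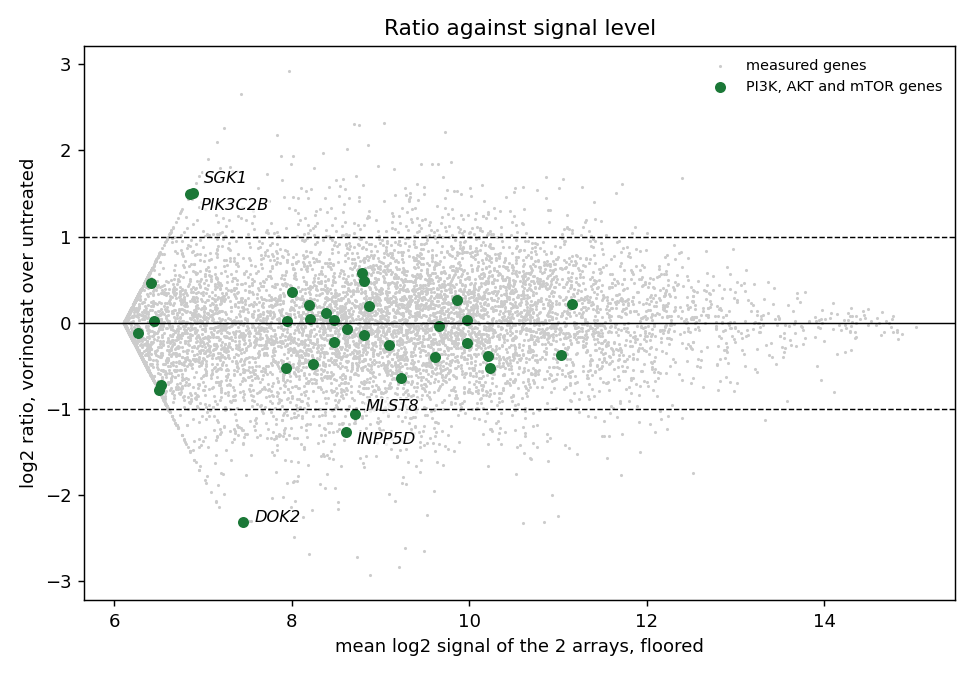
Log2 ratio, vorinostat over untreated, against the mean log2 signal of both arrays for 8277 measured genes (grey) and the 35 pathway genes (green); dashed lines mark 2-fold. SGK1 and PIK3C2B sit at the dim end beside the edge set by the floor, and INPP5D and MLST8 sit at middle levels.

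A further list of 165 genes of the pathway, chosen with earlier results of these data known, had 112 measured. Of these 3 were at least 2-fold higher, 8 were lower and the other 101 did not pass 2-fold. The 3.77% and 5.12% of all measured genes correspond to 4.22 and 5.74 in 112, so the higher count lies just below and the lower count just above the background. With equal medians 5 were higher and 7 lower. The median log2 ratio was -0.05, and with equal medians, quantile normalization and loess it was 0.08, 0.04 and 0.02, above 0 each time. The receptor gene IGF1R, a main activator of PI3K, had signals of 996 and 423, 2.35-fold lower, and -0.95 in log2 ratio on its other probe set. The receptor gene PDGFRA was at least 2.32-fold lower (160 and 12.3). SOS2, which loads RAS with GTP, had 646 and 319 (2.03-fold lower), with lower signals on all 4 measured probe sets. These were the 3 of 13 measured upstream genes past 2-fold, all lower, where 5.12% corresponds to 0.67. The count is fragile, since SOS2, at -1.02 in log2 ratio, lay just past the rule. PDGFRA has only a bound, from the 1 measured of its 3 probe sets. The upstream list is 1 of several, and no test was made of its count.

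TRIB3 and TRIB1, pseudokinases of which TRIB3 is known to bind AKT, were 3.45-fold lower (1136 and 330) and 2.46-fold lower (896 and 364). RPS6KC1, a relative of the S6 kinases with a lipid-binding PX domain, went from 235 to 764, 3.26-fold higher, on 1 probe set. PRKAG2, another γ subunit of AMPK, was 2.24-fold lower (313 and 139.8), the same direction as PRKAG1. The phosphoinositide phosphatase gene MTMR1 was 2.34-fold lower (696 and 298), with log2 ratios of -1.31 and -1.37 on its other probe sets. Its relative MTM1 was at least 2.07-fold higher (47.9 and 142), but had 0.23 on its second probe set. Among AKT substrates, CHUK, the IKKα kinase gene, was 2.04-fold higher (97.1 and 198), and the caspase inhibitor gene XIAP 2.55-fold lower (197 and 77.4), with a bound of -0.63 on its other probe set. The values of PRKAG2, MTMR1, CHUK and XIAP come from probe sets with a suffix for shared sequence.

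The 20 measured genes of mTOR complexes and nutrient sensing had a median log2 ratio of 0.21, with 14 above 0 (all genes: 3894 of 8277). By brightest probe set none passed 2-fold in either direction. The highest was LAMTOR3, a subunit of the lysosomal Ragulator scaffold, with 877 and 1534 (1.75-fold higher); this gene was chosen after its value was seen. The median was 0.34, 0.24 and 0.23 with equal medians, quantile normalization and loess, where that of all genes was 0.08, 0.02 and 0.01. The list of FOXO family and target genes had 12 measured, none of them a FOXO gene. Their median was -0.36, with 8 below 0 (all genes: 4383 of 8277) and 0 past 2-fold by brightest probe set. The lowest was CDKN1B, the p27 cell cycle inhibitor, with 1776 and 938 (1.89-fold lower), also chosen after its value was seen. The median was -0.23, -0.27 and -0.27 under the same 3 scalings. EIF4EBP1, a translation repressor that mTOR inactivates, had 260.1 and 469, 1.80-fold higher. The 8 measured translation targets had a median of -0.02 (0.11, 0.02 and -0.01 under the 3 scalings) and 0 past 2-fold by brightest probe set. Past 2-fold on a dimmer probe set were NPRL3 of the mTOR list (log2 ratio -1.24) and CCND2 of the FOXO list (-1.39). In the translation list, dimmer probe sets of EIF4G1 (-1.24) and EIF4EBP2 (1.77) passed it in opposite directions. These genes were picked after their values were seen. The remaining lists had medians of -0.16 (13 upstream genes), -0.04 (22 phosphoinositide genes), -0.14 (15 AKT regulators), 0.10 (5 RSK, MSK and related kinases), -0.12 (9 AMPK genes) and -0.13 (8 AKT substrates). The list of 5 includes RPS6KC1, described above as a relative of the S6 kinases. Under the same 3 scalings the phosphoinositide median turned above 0, to 0.08, 0.05 and 0.03. The AMPK median was 0.01, 0.00 and -0.01, and that of the AKT substrates 0.00, -0.09 and -0.10. The medians of the AKT regulators stayed below 0 at -0.01, -0.03 and -0.03, and those of the upstream genes at -0.08, -0.13 and -0.13. Those of the RSK, MSK and related kinases stayed above 0 at 0.23, 0.14 and 0.14.

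**Figure D4:**
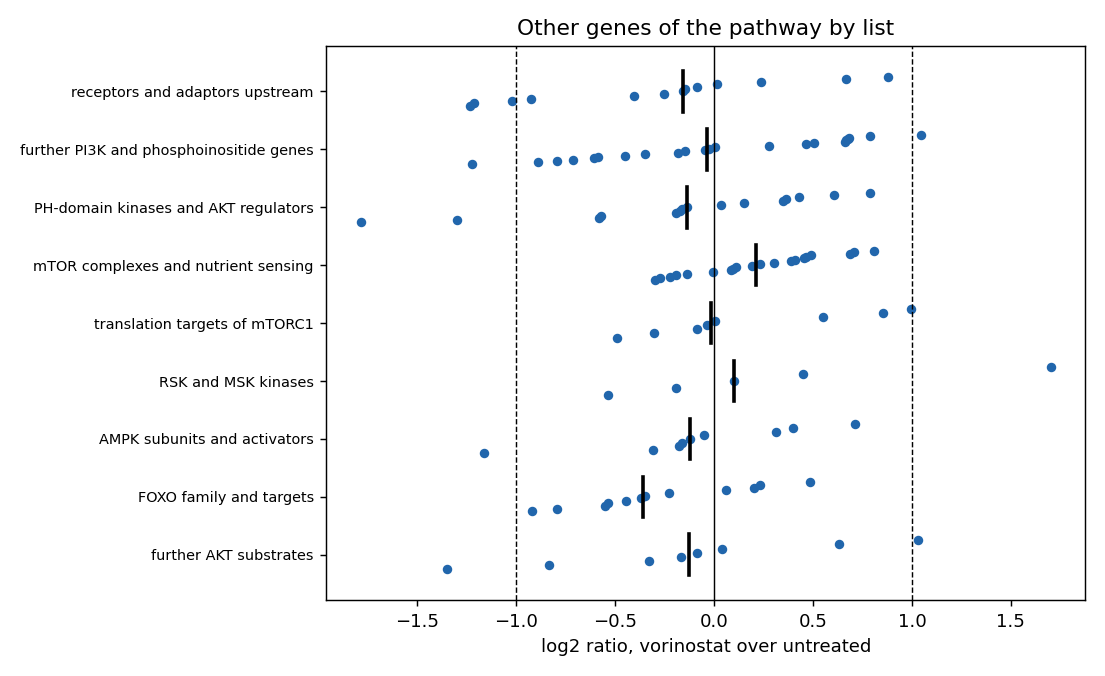
Log2 ratio, vorinostat over untreated, of the 112 measured further genes of the pathway (points) by list, with the median of each list as a vertical bar and 2-fold as dashed lines. The bar of the mTOR complex and nutrient-sensing genes lies at 0.21 and that of the FOXO family and targets at -0.36, and RPS6KC1 and TRIB3 are the farthest points on either side.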

How the data were processed

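The intensity values that the authors deposited are linear MAS5 signals, 1 per probe set, per the submitters' processing notes. The version of MAS5, the scaling target and detection calls are not given in the sources used here. Of 22283 probe sets, 68 controls were used for quality values only. The platform's annotation table gave the symbols; the Entrez identifiers of all 61 pathway probe sets were found in a RefSeq table and changed 0 symbols. Probe sets with several symbols were in no count. The floor of 68.9 lies above the highest poly-A control signal (43.1). Differences of at least 2-fold were counted as a rule of size, with no test; the number of arrays, 1 per group, limits the precision. Every measured pathway gene is named; further genes are named when at least 2-fold apart, and EIF4EBP1 is named whatever its value, as would be 3 more genes that are not analysed here. Pathway genes named outside this rule are said to be chosen after their values were seen. The genes, lists and rules were chosen with earlier results of these data known. The steps were tested on simulated data. The altered genes there lay well above the floor and well past 2-fold, so dim signals and ratios near 2-fold were not covered. Python 3.11.15, numpy 2.4.6, pandas 2.3.3 and statsmodels 0.14.6 (loess, span 0.3) were used.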

Additional observations from a re-analysis of the deposited data

Results flagged for a closer look

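The 3 probe sets annotated to both FOXO3 and FOXO3B were in no comparison, and each had a vorinostat signal above the highest poly-A control signal of 43.1, which is why they are listed. Their signals, untreated and vorinostat, were 421 and 492 on the first, 540.2 and 521 on the second and 22.9 and 103 on the third. The first 2 lie close together on both arrays, like the probe set annotated to FOXO3 alone (992 and 1014), and the third went from under to above the floor of 68.9.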

How the results depend on the processing

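The planned settings were 3 other scalings, 3 other floors, an offset of 16 signal units, the median over probe sets, leaving out probe sets that can share sequence, and thresholds of 1.5-fold and 3-fold. The pathway median stayed between -0.10 and 0.06. Of the 35 genes, the 2-fold higher count was 2 except with a 60th percentile floor and at the 3-fold threshold (0 each). At that floor SGK1 and PIK3C2B were not measured. The 2-fold lower count of 3 became 2 with equal medians, where MLST8 fell short of 2-fold. It became 1 without shared-sequence probe sets (INPP5D and MLST8 then have none), 6 at 1.5-fold and 1 at 3-fold. It was 4 with the 25th percentile floor, the poly-A floor or the offset, where PIK3CG passed 2-fold. With the 60th percentile floor DOK2 had only a bound of -0.77 in log2 ratio and was not counted, which left 2. Only 28 of the 35 genes were measured at that floor, and 20 without shared-sequence probe sets. For the further pathway genes, the count of 3 higher became 5 with equal medians, 1 with the 60th percentile floor, 19 at 1.5-fold and 1 at 3-fold. The count of 8 lower became 5 both with the 60th percentile floor and without shared-sequence probe sets, 17 at 1.5-fold and 1 at 3-fold. None of the 5 genes past 2-fold changed sign under any setting that measured it. The settings reuse the same 2 arrays, and the scalings moved ratios too little to turn any of that size. The unchanged signs therefore say nothing about repeat cultures. No paired analysis was possible because each group has 1 array. Dim signals limit DOK2, IRS1, IRS2, GAB1, AKT2, PIK3CG, SGK1 and PIK3C2B, which lay near or under the floor on at least 1 array.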

Other observations

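The class III PI3K complex, which makes PI3P for autophagy and endosome traffic, was outside the 38 genes and was chosen after its values were seen. Its catalytic subunit gene PIK3C3 had signals of 565 untreated and 903 with vorinostat (1.60-fold higher), with 0.23 in log2 ratio on a second, dim probe set. PIK3R4, which encodes its regulatory partner VPS15, had 620 and 985 (1.59-fold higher). Both genes lay above 0, as did the class II genes PIK3C2A and PIK3C2B, and neither passed 2-fold.

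EIF4EBP2, a second translation repressor that mTOR inactivates, had 782 and 1558 on its brightest probe set (1.99-fold higher), and its dimmer probe set had a log2 ratio of 1.77 (80.6 and 275). It too was chosen after its values were seen. The ubiquitin ligase gene CBLB, whose product restrains PI3K signalling in lymphocytes, had 625 and 992 (1.59-fold higher). The adaptor gene SHC1 had 1263 and 664 (1.90-fold lower). These genes were picked in the same way.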
